A study of Mus musculus with 8 samples.

Results

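Jakmip1, Adamts9, 2010107E04Rik, Prph and Vgf were followed across differentiating mouse embryonic stem cells in which Evx1 or its antisense transcript had been targeted. These 5 genes, of 38610 gene symbols in the deposited table, were chosen by their large changes in the libraries labelled EVX1 KO against wild type (WT). Jakmip1, Adamts9 and 2010107E04Rik were higher there and Prph and Vgf lower. Those values chose the genes and are given as a description, without a test. The question put to the data was what the same genes did in Evx1as knockout (KO) cells. There Vgf, Prph and 2010107E04Rik moved in the same direction and passed the test, and Jakmip1 and Adamts9 did not pass. Of all tested genes 13.0% passed as higher and 11.4% as lower there, and the WT libraries of that test also chose the genes. The calls of Prph and 2010107E04Rik were lost when any single Evx1as KO library was left out.

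The cells belong to the CJ9 line (strain 129S4/SvJae) and were differentiated by withdrawal of leukemia inhibitory factor (LIF), a cytokine that sustains self-renewal. There were 3 libraries of EVX1 KO cells, 3 of Evx1as KO cells and 2 of WT cells, and the series title names CRISPR as the editing method. All 8 titles give day 4. For EVX1 KO replicates 2 and 3 the protocol text gives 6 days without LIF and a harvest at day 6, so their labels conflict. The sources used here do not give the position of the edits, the number of clones or whether replicates were separate cultures. P-values therefore cover only the spread between these libraries, which may be technical.

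Evx1 codes for a homeobox factor active in the primitive streak, where mesoderm and endoderm arise in the embryo, and Evx1as is a noncoding RNA from the same locus. The chosen genes have unrelated roles. Jakmip1 encodes a microtubule-associated protein of neurons that also binds Janus kinases. Adamts9 encodes a secreted metalloprotease that cuts proteoglycans such as versican in the extracellular matrix. 2010107E04Rik, listed as Atp5mpl by RefSeq, encodes a small mitochondrial protein associated with ATP synthase. Prph encodes peripherin, an intermediate filament protein of peripheral neurons. Vgf encodes a precursor of secreted neuropeptides and is induced by nerve growth factor.

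Values are FPKM, that is, fragments per length of transcript and per number of mapped fragments. The absolute depth is unknown, and relative depth ran from 0.863 to 1.19 times that of WT replicate 1. Evx1 had 26.3, 20.8 and 31.7 FPKM in EVX1 KO, 2.45, 3.84 and 0.541 FPKM in Evx1as KO, and 21.97 and 31.2 FPKM in WT, so its transcript does not check the EVX1 KO label. Evx1as, listed as 5730457N03Rik, had 5.01, 8.81 and 7.39 FPKM in EVX1 KO, 0.0549, 0.104 and 0.0485 FPKM in Evx1as KO, and 5.36 and 6.75 FPKM in WT. The Evx1as KO libraries thus lay below WT for both transcripts, whose reads could not be separated where they overlap because the strand setting of the counting is not given. The summed level of 9 embryonic stem cell and epiblast genes lay between 633 and 661 FPKM in EVX1 KO, between 929 and 967 FPKM in Evx1as KO, and at 523 and 565 FPKM in WT. In bulk RNA, fewer cells of a type and less RNA per cell cannot be told apart.

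Each of the 5 genes had 1 line in the table and reached 1 FPKM in at least 2 libraries, as did 13188 genes in all, which were tested. Positions are those of the deposited table, whose build is not stated. Those of Jakmip1, Vgf, 2010107E04Rik and Prph do not overlap the RefSeq positions of these genes on GRCm38. They cannot be compared with the promoter coordinates below. Jakmip1 was placed on chromosome 5 at 37442095 to 37516537, and Vgf on the same chromosome at 137506164 to 137509221. Adamts9 lay on chromosome 6 at 92722692 to 92851435, which is 40.5 Mb from Evx1. 2010107E04Rik lay on chromosome 12 at 113199586 to 113205188, and Prph on chromosome 15 at 98885604 to 98889409. Adamts9 overlapped another entry, AK043032, and reads of that pair could not be separated either. The medians of all genes on chromosomes 5, 6, 12 and 15, relative to each gene's mean, lay between −0.04 and 0.04 (log2) in all 8 libraries. None of the 5 genes lies on chromosome 8, whose median was −0.38 and −0.30 in EVX1 KO replicates 1 and 2 and 0.08 in replicate 3. Nor does any lie on chromosome 14, whose median was 0.13 in Evx1as KO replicate 1 and −0.36 and −0.34 in replicates 2 and 3.

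RefSeq promoter windows on GRCm38.p6 were found for Adamts9, Prph and Jakmip1, 3 of the 5 genes. The 250 bases before the start are shown for Adamts9, higher in EVX1 KO, and Prph, lower there, because each has a single window. Capitals mark matches to 4 motifs searched on both strands.
Adamts9, chr6:92943535-92943784, minus strand: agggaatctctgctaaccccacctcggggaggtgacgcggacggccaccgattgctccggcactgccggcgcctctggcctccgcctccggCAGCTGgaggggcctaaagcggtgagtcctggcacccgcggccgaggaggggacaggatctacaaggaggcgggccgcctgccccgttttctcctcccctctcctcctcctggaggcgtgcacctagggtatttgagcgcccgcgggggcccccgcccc
Prph, chr15:99054924-99055173, plus strand: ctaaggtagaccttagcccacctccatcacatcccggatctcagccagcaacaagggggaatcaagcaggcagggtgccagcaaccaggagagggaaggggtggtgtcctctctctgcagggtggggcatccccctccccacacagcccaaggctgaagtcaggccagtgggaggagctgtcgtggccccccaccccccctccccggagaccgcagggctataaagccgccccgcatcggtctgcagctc
The motifs were TGACGTCA (cyclic AMP response element), TAATTA (homeodomain core), CAGCTG (an E-box) and CCAAT. The capitals in Adamts9 are the E-box, which begins 159 bases before the start. That motif occurs in 13.0% of 32851 windows of this length. The Prph window and both windows of Jakmip1 hold none of the 4. These windows and that of Adamts9 lie inside the RefSeq spans of their genes on GRCm38, so the outermost starts were not searched. Over all windows TGACGTCA occurs in 1.55%, TAATTA in 4.84% and CCAAT in 33.8%. GC content was 71.2% for Adamts9, 65.2% for Prph, and 50.4% and 53.2% for the windows of Jakmip1, beside a median of 52.4% over all windows. A match describes letters and was not tested for a role.

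Jakmip1, the microtubule-binding partner of Janus kinases, had 5.23, 5.42 and 3.66 FPKM in EVX1 KO, 1.30, 2.19 and 2.41 FPKM in Evx1as KO, and 1.35 and 1.04 FPKM in WT. The EVX1 KO libraries all lay above the other 5, while the Evx1as KO libraries overlapped WT. Means were 4.77 ± 0.964 FPKM in EVX1 KO, 1.97 ± 0.591 in Evx1as KO and 1.20 ± 0.221 in WT (SD, n = 3, 3 and 2). The log2 fold change of EVX1 KO against WT was 1.38 ± 0.21 (standard error), here and below on the log2(FPKM + 1) scale, which understates the changes of low genes. EVX1 KO replicate 1, the library with day 4 in both title and protocol, lay 1.51 above the WT mean on that scale.

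Adamts9, the secreted metalloprotease, had 6.86, 8.36 and 5.21 FPKM in EVX1 KO, 2.31, 3.39 and 2.11 FPKM in Evx1as KO, and 1.82 and 2.60 FPKM in WT. Again EVX1 KO lay above all other libraries, and Evx1as KO and WT were interleaved. Its mean of 6.81 ± 1.58 FPKM in EVX1 KO was 2.62 times the Evx1as KO mean of 2.60 ± 0.690 and 3.09 times the WT mean of 2.21 ± 0.552 (SD, n = 3, 3 and 2). The log2 fold change of EVX1 KO against WT was 1.27 ± 0.22, and 1.30 for replicate 1 alone.

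The mitochondrial gene 2010107E04Rik was the most abundant of the 5, with a mean FPKM at percentile 90.9 of the tested genes, against percentiles 24.2 to 46.2 for the others. It had 66.0, 83.3 and 121 FPKM in EVX1 KO, 56.2, 52.2 and 56.9 FPKM in Evx1as KO, and 24.2 and 38.6 FPKM in WT. The groups were fully separated, with Evx1as KO in the middle. Its highest library was 1.83 times the lowest within EVX1 KO, 1.09 times within Evx1as KO and 1.597 times within WT. The log2 fold change of EVX1 KO against WT was 1.48 ± 0.25. EVX1 KO replicate 1, without the label conflict, was the lowest of its group and lay 1.08 above the WT mean.

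Prph, the filament gene, had 2.01, 3.17 and 5.76 FPKM in EVX1 KO, 6.87, 5.77 and 7.41 FPKM in Evx1as KO, and 12.4 and 14.4 FPKM in WT. The groups did not overlap, although EVX1 KO replicate 3 and Evx1as KO replicate 2 nearly met. The highest EVX1 KO library was 2.86 times the lowest, a wider spread than the other 4 genes had in that group. The log2 fold change of EVX1 KO against WT was −1.71 ± 0.28, and replicates 1, 2 and 3 lay at −2.25, −1.79 and −1.09 from the WT mean.

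Vgf, the neuropeptide precursor gene, had 1.62, 2.15 and 2.56 FPKM in EVX1 KO, 3.86, 4.72 and 3.64 FPKM in Evx1as KO, and 10.3 and 6.997 FPKM in WT. No pair of groups overlapped, and Evx1as KO again lay in the middle. The mean of 2.11 ± 0.473 FPKM in EVX1 KO was 0.245 times the WT mean of 8.63 ± 2.32 FPKM (SD, n = 3 and 2). The log2 fold change of EVX1 KO against WT was −1.62 ± 0.19, and −1.86 for replicate 1 alone.

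**Figure D1:**
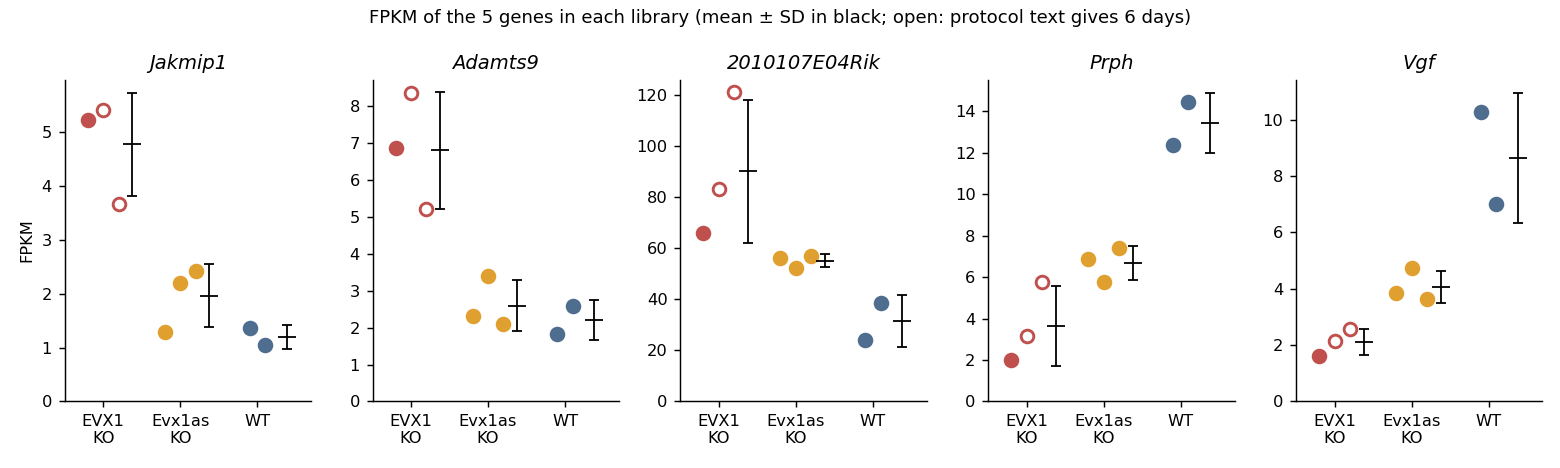
FPKM of the 5 genes (vertical axis) in each library of EVX1 KO, Evx1as KO and WT, with the mean ± SD in black (n = 3, 3 and 2). Open points are EVX1 KO replicates 2 and 3, whose protocol text gives 6 days. Evx1as KO lies between EVX1 KO and WT for 2010107E04Rik, Prph and Vgf and overlaps WT for Jakmip1 and Adamts9.

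The chosen genes stood near the ends of the EVX1 KO against WT ranking, but others lay further out. Larger rises were found for 21 tested genes than for 2010107E04Rik, 26 than for Jakmip1 and 37 than for Adamts9. Larger falls were found for 11 genes than for Prph and 15 than for Vgf. In this comparison limma called 0.690% of tested genes higher and 0.554% lower (Benjamini-Hochberg adjusted p under 0.05). The groups did not overlap for 21.2% of genes with EVX1 KO above WT and 17.9% with it below. All 5 chosen genes had groups that did not overlap, which their choice sets, and nothing is read from it.

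The number of genes called, 164, moved strongly with single libraries. It was 42, 4 and 643 without EVX1 KO replicates 1, 2 and 3, 81 and 43 without Evx1as KO replicates 1 and 3, and 6 and 28 without WT replicates 1 and 2.

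The direct difference between EVX1 KO and Evx1as KO is also a description, since EVX1 KO chose the genes. On the log2 scale it was 0.97 ± 0.19 for Jakmip1, 1.11 ± 0.19 for Adamts9, 0.66 ± 0.22 for 2010107E04Rik, −0.80 ± 0.25 for Prph and −0.71 ± 0.17 for Vgf (± standard error). Without EVX1 KO replicate 3 the value of 2010107E04Rik was 0.42, and without EVX1 KO replicate 1 that of Prph was −0.53. Without EVX1 KO replicates 2 and 3, whose day labels conflict, they were 0.26 and −1.34. EVX1 KO lay above Evx1as KO without overlap for 3 of the 5 and below it for 2, beside 20.1% and 20.8% of tested genes.

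In Evx1as KO against WT, the knockout libraries had no part in the choice of the genes, but the WT libraries had, so these tests are not independent of it. Vgf fell to 4.07 ± 0.573 FPKM in Evx1as KO, against 8.63 ± 2.32 in WT (SD, n = 3 and 2; log2 fold change −0.91 ± 0.19, limma adjusted p = 0.0106). Prph fell to 6.68 ± 0.837 FPKM in Evx1as KO, against 13.4 ± 1.45 in WT (SD, n = 3 and 2; log2 fold change −0.91 ± 0.28, limma adjusted p = 0.0452). 2010107E04Rik rose to 55.1 ± 2.55 FPKM in Evx1as KO, against 31.4 ± 10.2 in WT (SD, n = 3 and 2; log2 fold change 0.83 ± 0.25, limma adjusted p = 0.0399). Jakmip1 (0.42 ± 0.21, limma adjusted p = 0.184) and Adamts9 (0.16 ± 0.22, limma adjusted p = 0.624) did not pass.

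Of the 5 genes, 1 was called higher and 2 lower in Evx1as KO, beside 13.0% and 11.4% of tested genes. The same 3 had groups that did not overlap, as did 29.5% of genes with Evx1as KO above WT and 26.2% with it below. Both calls and separated groups were thus common in this comparison. The Vgf call was lost without WT replicate 1 (limma adjusted p = 0.0870), where the remaining WT library is taken to vary as the knockouts do. The Prph call was lost without EVX1 KO replicate 2 (limma adjusted p = 0.0659), Evx1as KO replicates 1, 2 or 3 (0.0892, 0.0983 and 0.0828) or WT replicates 1 or 2 (0.121 and 0.202). The 2010107E04Rik call was lost without EVX1 KO replicate 2 (limma adjusted p = 0.0598), Evx1as KO replicates 1, 2 or 3 (0.0904, 0.0619 and 0.101) or WT replicate 1 (0.262, log2 fold change 0.50). The number of genes called in all, 3230, was 2117 and 1807 without Evx1as KO replicates 1 and 3, and 1414 and 1498 without WT replicates 1 and 2.

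Both comparisons share the WT libraries, and their values can only be set side by side. Log2 changes were −1.71 in EVX1 KO and −0.91 in Evx1as KO for Prph. They were −1.62 and −0.91 for Vgf, and 1.48 and 0.83 for 2010107E04Rik. The order EVX1 KO above Evx1as KO above WT, with no overlap between neighbours, held for 2010107E04Rik and for 0.713% of tested genes. The reverse order held for Prph and Vgf and for 0.569% of tested genes. The outer groups of that order are those that chose the genes.

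**Figure D2:**
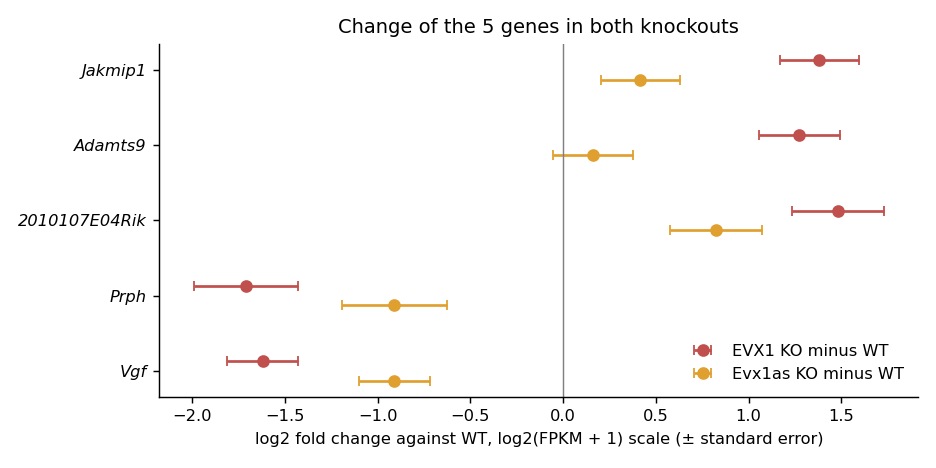
Log2 fold changes against WT on the log2(FPKM + 1) scale (horizontal axis, ± standard error) of the 5 genes, with EVX1 KO drawn above Evx1as KO. EVX1 KO values run from −1.71 to 1.48. For each gene the Evx1as KO value lies nearer to 0, which the choice of genes by EVX1 KO favours, and nothing is read from it.

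How alike the genes were over the 8 libraries is partly set by their choice. As a description, Pearson's r of log2(FPKM + 1) over 8 libraries was 0.91 between Jakmip1 and Adamts9 and 0.91 between Prph and Vgf. It was 0.72 between Jakmip1 and 2010107E04Rik and 0.72 between Adamts9 and 2010107E04Rik. Between genes of opposite direction r ran from −0.90 for Jakmip1 and Prph to −0.66 for Prph and 2010107E04Rik. For Vgf and 2010107E04Rik r was −0.86. Within EVX1 KO, replicate 3 was nearest to WT for Jakmip1, Adamts9, Prph and Vgf but farthest from WT for 2010107E04Rik.

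By the same r, the named genes most like Jakmip1 were Slit1 (0.98), Emb (0.98) and Uba3 (0.98). A search for the highest r among many genes over 8 libraries favours such values, here and below, and nothing is read from them. Slit1, a secreted axon guidance ligand, had 1.64, 1.89 and 1.42 FPKM in EVX1 KO, 0.445, 0.673 and 0.734 FPKM in Evx1as KO, and 0.513 and 0.411 FPKM in WT. Emb had 47.9, 48.6 and 45.1 FPKM in EVX1 KO, 25.3, 29.2 and 31.8 FPKM in Evx1as KO, and 27.8 and 23.3 FPKM in WT. Both had the Jakmip1 pattern of high EVX1 KO libraries and overlapping Evx1as KO and WT libraries, which their choice by r favours. The genes most like Adamts9 were Lats1 (0.99), a kinase of the Hippo pathway, Jmjd1c (0.98) and D7Ertd143e (0.98). Lats1 had 5.31, 5.81 and 4.55 FPKM in EVX1 KO, 3.73, 4.17 and 3.70 FPKM in Evx1as KO, and 3.36 and 3.81 FPKM in WT.

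The genes most like 2010107E04Rik were Tm9sf3 (0.98), Nup155 (0.98), a nuclear pore subunit, and Fyttd1 (0.98). Nup155 had 10.4, 10.8 and 12.7 FPKM in EVX1 KO, 9.74, 9.93 and 9.25 FPKM in Evx1as KO, and 7.59 and 8.44 FPKM in WT, the same order over a narrower range. The genes most like Prph were Idh3b (0.98), a subunit of mitochondrial isocitrate dehydrogenase, Gtse1 (0.98) and Tomm22 (0.97). Idh3b had 54.0, 54.9 and 59.0 FPKM in EVX1 KO, 61.1, 60.3 and 62.8 FPKM in Evx1as KO, and 67.4 and 66.2 FPKM in WT. The genes most like Vgf were Timm13 (0.97), which acts in mitochondrial protein import, Trim2 (0.96) and Map3k12 (0.96). Map3k12, a kinase of axon injury responses, had 3.25, 3.83 and 3.48 FPKM in EVX1 KO, 3.95, 4.42 and 3.95 FPKM in Evx1as KO, and 5.16 and 4.65 FPKM in WT.

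The nearest tested gene on either side of each member was read in the same libraries. Of these 10 neighbours 0 passed in EVX1 KO against WT by limma, and 4 had an unadjusted p under 0.05, beside 21.2% of all tested genes in that comparison. In Evx1as KO against WT 7 of the 10 had one, beside 38.5% of all tested genes. After adjustment 3 passed, beside 13.0% of all tested genes called higher and 11.4% called lower. Ap1s1, a clathrin adaptor gene 1642 bp from Vgf, had 35.0, 44.5 and 40.7 FPKM in EVX1 KO, 36.4, 44.1 and 40.3 FPKM in Evx1as KO, and 55.0 and 47.4 FPKM in WT. Both knockouts lay below WT, and neither difference passed (−0.35 ± 0.13 in EVX1 KO and −0.34 ± 0.13 in Evx1as KO, limma adjusted p = 0.1702 and 0.0818). On the other side of Vgf, the lysyl hydroxylase gene Plod3 fell in Evx1as KO (−0.49 ± 0.09, limma adjusted p = 0.00619). Tuba1c and Troap, around Prph, lay at 0.24 ± 0.07 and 0.10 ± 0.09 in EVX1 KO and did not pass in either knockout.

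Crmp1, an axon guidance gene next to Jakmip1, had 2.62, 3.48 and 4.72 FPKM in EVX1 KO, 19.7, 16.1 and 21.3 FPKM in Evx1as KO, and 4.65 and 7.68 FPKM in WT. It rose in Evx1as KO (1.51 ± 0.23, limma adjusted p = 0.00335) and lay at −0.63 ± 0.23 in EVX1 KO (limma adjusted p = 0.173), unlike Jakmip1. Wfs1, on the other side, rose in Evx1as KO (0.68 ± 0.15, limma adjusted p = 0.0120), a call lost without WT replicate 2 (0.0809). Trh, the thyrotropin-releasing hormone gene beside Adamts9, had 40.7, 25.3 and 7.53 FPKM in EVX1 KO, 20.2, 45.0 and 21.98 FPKM in Evx1as KO, and 9.47 and 8.14 FPKM in WT. It varied widely within both knockouts and did not pass in either (1.11 ± 0.58 in EVX1 KO and 1.53 ± 0.58 in Evx1as KO, limma adjusted p = 0.305 and 0.0854). Magi1 beside Adamts9 and Ppp1r13b and Aspg around 2010107E04Rik did not pass in either knockout.

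**Figure D3:**
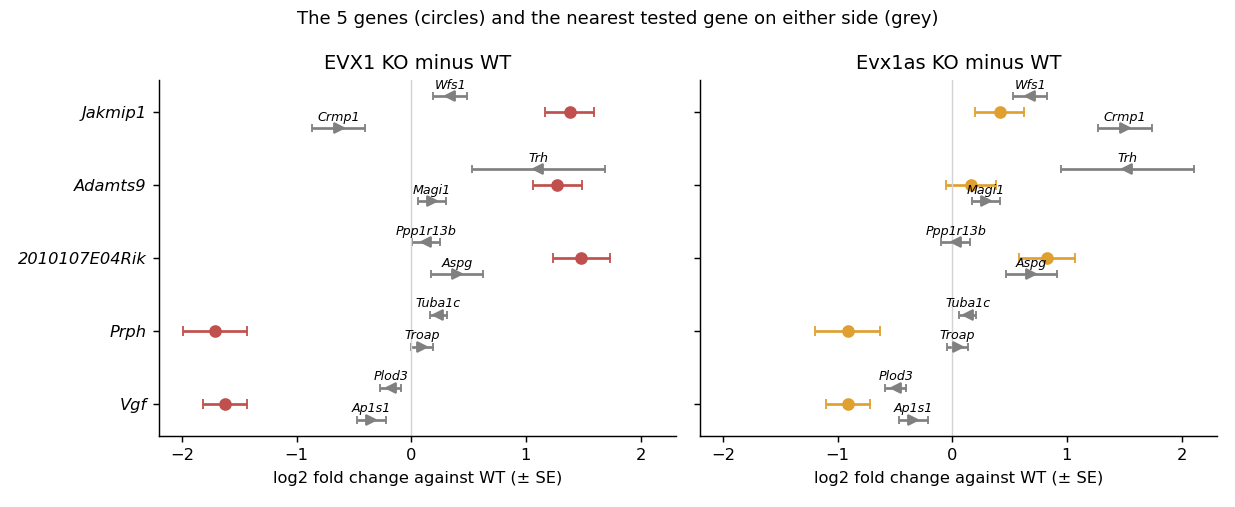
Log2 fold changes against WT (horizontal axis, ± standard error) of the 5 genes (coloured circles) and the nearest tested gene before (left-pointing grey) and after (right-pointing grey) each, for EVX1 KO and Evx1as KO. In EVX1 KO the neighbours run from −0.63 for Crmp1 to 1.11 for Trh, which lies near Adamts9 itself at 1.27, and the other 8 between −0.35 and 0.40.

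Vgf is a cargo of dense-core vesicles, where neuropeptides are processed and stored. Of 16 other genes of these vesicles 9 were tested. In EVX1 KO 0 of 9 passed by limma, and the median log2 fold change was −0.11, beside 0.02 over all genes. An unadjusted p under 0.05 was found for 2 in EVX1 KO and 4 in Evx1as KO, beside 21.2% and 38.5% of all tested genes. Cpe, a carboxypeptidase that trims neuropeptides, had 5.42, 6.99 and 14.1 FPKM in EVX1 KO, 17.4, 16.1 and 19.0 FPKM in Evx1as KO, and 13.96 and 18.9 FPKM in WT. EVX1 KO replicates 1 and 2 were its lowest libraries, and EVX1 KO against WT did not pass (−0.91 ± 0.31, limma adjusted p = 0.147). For EVX1 KO replicate 1 alone, given because Cpe was low in that single library, the log2 fold change was −1.43. In Evx1as KO 2 rose and 1 fell, beside 13.0% and 11.4% of all tested genes, with a median of 0.10 beside 0.02. Pcsk1n, an inhibitor of a prohormone convertase, rose to 5.90 ± 0.671 FPKM in Evx1as KO, against 2.55 ± 1.23 in WT (SD, n = 3 and 2; limma adjusted p = 0.0141). The convertase gene Pcsk2 rose (0.85 ± 0.18), and Gal, the galanin precursor, fell (−2.15 ± 0.26, limma adjusted p = 0.00152). Pcsk2 reached 1 FPKM only in Evx1as KO, so it entered the test only through the group where it is high. The Pcsk1n call was lost without Evx1as KO replicate 3 (0.0510) or WT replicate 1 (0.0976), and that of Pcsk2 without WT replicates 1 or 2 (0.0568 and 0.0624).

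Prph belongs to the intermediate filaments, of which 11 other genes were tested. In EVX1 KO 0 of 11 passed by limma. There 9 lay below WT and 2 above, with a median of −0.58 beside 0.02 over all genes. Nes and Lmna lay at −0.67 and −0.58 there, and at −1.39 and −0.94 for EVX1 KO replicate 1 alone. These values are given because both genes were low in that single library. For 4 in EVX1 KO and 7 in Evx1as KO the unadjusted p was under 0.05, beside 21.2% and 38.5% of all tested genes. In Evx1as KO 0 rose and 4 fell, beside 13.0% and 11.4% of all tested genes, with a median of −0.53 beside 0.02. Vim, the filament gene of mesenchymal cells, had 280.4, 209 and 177 FPKM in EVX1 KO, 140.4, 169 and 88.5 FPKM in Evx1as KO, and 475 and 332 FPKM in WT, and fell in Evx1as KO (−1.62 ± 0.28, limma adjusted p = 0.00523). The epithelial keratin genes Krt8 (−1.30 ± 0.20) and Krt18 (−1.29 ± 0.19) and the lamin A gene Lmna (−1.14 ± 0.17) fell there too. The neurofilament gene Nefm did not pass in either knockout, with 26.5, 44.5 and 58.1 FPKM in EVX1 KO, 62.3, 33.7 and 25.3 FPKM in Evx1as KO, and 82.0 and 64.0 FPKM in WT.

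Adamts9 was set beside its family and the proteoglycans these enzymes cut, of which 7 of 22 were tested. For 3 in EVX1 KO and 5 in Evx1as KO the unadjusted p was under 0.05, beside 21.2% and 38.5% of all tested genes. In EVX1 KO 0 of 7 passed by limma, and the median was 0.05 beside 0.02 over all genes. Its relatives Adamts10 and Adamts15 lay at 0.49 ± 0.20 and 0.63 ± 0.28 there, and Adamts7 at −0.53 ± 0.18. Vcan, the versican gene, had 2.99, 4.90 and 6.79 FPKM in EVX1 KO, 5.21, 3.49 and 2.69 FPKM in Evx1as KO, and 7.81 and 8.52 FPKM in WT. In Evx1as KO 1 rose, the proteoglycan gene Ncan (1.12 ± 0.19), and 2 fell, Adamts7 (−0.90 ± 0.18) and Vcan (−0.97 ± 0.29). Ncan reached 1 FPKM only in Evx1as KO, so it entered the test only through the group where it is high. Over all tested genes 13.0% were called higher there and 11.4% lower, and the list median was −0.36 beside 0.02. The Adamts7 call was lost without WT replicate 2 (limma adjusted p = 0.0668). The Vcan call (limma adjusted p = 0.0380) was lost without EVX1 KO replicate 2 (0.0574), Evx1as KO replicates 2 or 3 (0.0749 and 0.111) or WT replicates 1 or 2 (0.124 and 0.164), and with no filter on low values (0.102).

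Jakmip1 was set beside its relatives, the Janus kinases and the GABA-B receptor subunits, of which 5 of 7 were tested. In EVX1 KO 0 of 5 passed by limma, and the median was 0.15 beside 0.02 over all genes. An unadjusted p under 0.05 was found for 0 in EVX1 KO and 2 in Evx1as KO, beside 21.2% and 38.5% of all tested genes. Jakmip2 had 0.231, 0.315 and 0.484 FPKM in EVX1 KO, 1.58, 2.04 and 1.71 FPKM in Evx1as KO, and 0.389 and 0.722 FPKM in WT. It was thus highest in Evx1as KO, whereas Jakmip1 was highest in EVX1 KO. In Evx1as KO 2 rose and 0 fell, beside 13.0% and 11.4% of all tested genes, with a median of 0.15 beside 0.02. The genes that rose were Jakmip2 (0.84 ± 0.18, limma adjusted p = 0.0121) and the receptor gene Gabbr1 (0.68 ± 0.14). Jakmip2 reached 1 FPKM only in Evx1as KO, so it entered the test only through the group where it is high. The Jakmip2 call was lost without WT replicate 1 (0.0873), and that of Gabbr1 without WT replicates 1 or 2 (0.0586 and 0.0508).

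2010107E04Rik was set beside 17 tested genes of ATP synthase. In EVX1 KO 0 rose and 1 fell, beside 0.690% and 0.554% of all tested genes. The median was −0.07 beside 0.02 over all genes, while the mean of 2010107E04Rik was 2.87 times that in WT. The gene that fell, the stalk subunit gene Atp5h, had 156, 168 and 163 FPKM in EVX1 KO, 179, 179 and 172 FPKM in Evx1as KO, and 213 and 213 FPKM in WT (EVX1 KO against WT −0.39 ± 0.07, limma adjusted p = 0.0432). That call was lost in 11 of 15 alternatives (limma adjusted p up to 0.214), among them without any single library other than EVX1 KO replicate 3. The 17 genes had a summed level between 3874 and 4003 FPKM in EVX1 KO, between 4108 and 4472 FPKM in Evx1as KO, and at 3877 and 4139 FPKM in WT. Usmg5, another small subunit, had 94.1, 104 and 86.8 FPKM in EVX1 KO, 78.5, 78.3 and 92.2 FPKM in Evx1as KO, and 97.4 and 102 FPKM in WT. In Evx1as KO 2 rose, Atp5g2 (0.46 ± 0.11) and Atp5k (0.30 ± 0.09), and 1 fell, Atp5h (−0.27 ± 0.07). Over all tested genes 13.0% were called higher there and 11.4% lower, and the list median was 0.03 beside 0.02. The Atp5g2 and Atp5h calls were lost without Evx1as KO replicates 1 or 3 (limma adjusted p = 0.0599 and 0.0715 for Atp5g2, 0.0587 and 0.0892 for Atp5h) or WT replicates 1 or 2 (0.0950 and 0.0924, 0.101 and 0.0985). The Atp5k call was lost without EVX1 KO replicate 2 (0.0653), any 1 of the Evx1as KO libraries (up to 0.0915) or WT replicate 2 (0.249), in a fit of only Evx1as KO and WT (0.0645), and with median-ratio scaling, where 1 gene of the list rose and 2 fell.

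Since Prph, Vgf and Jakmip1 are active in neurons, 20 neuron markers were read. Their summed level lay between 184 and 229.9 FPKM in EVX1 KO, between 191 and 246 FPKM in Evx1as KO, and at 214 and 217 FPKM in WT. Most of it was Stmn2, a tubulin-binding gene of growth cones, with 143, 174 and 127 FPKM in EVX1 KO, 129, 139.9 and 181 FPKM in Evx1as KO, and 116 and 135 FPKM in WT. Without Stmn2 the sum lay between 40.6 and 77.5 FPKM in EVX1 KO, between 60.9 and 65.0 FPKM in Evx1as KO, and at 81.6 and 98.6 FPKM in WT. Both knockouts thus lay below WT in that remainder, but most of it in WT was 1 gene, Gap43 (67.6 and 48.6 FPKM). Of the 9 tested markers 6 lay above WT and 3 below in Evx1as KO. In EVX1 KO 3 lay above and 6 below. In each library 8 or 9 of the 20 reached 1 FPKM, and Neurog1, a proneural factor gene, was listed at 0 in all. In EVX1 KO 0 of 9 tested markers passed by limma, and the median was −0.38 beside 0.02 over all genes. For 2 in EVX1 KO and 3 in Evx1as KO the unadjusted p was under 0.05, beside 21.2% and 38.5% of all tested genes. Tubb3, the neuronal tubulin gene, had 2.74, 7.74 and 14.5 FPKM in EVX1 KO, 12.4, 10.02 and 8.79 FPKM in Evx1as KO, and 9.74 and 12.01 FPKM in WT. EVX1 KO replicate 1 was its lowest library and replicate 3 its highest, and EVX1 KO against WT did not pass (−0.57 ± 0.47, limma adjusted p = 0.515). For EVX1 KO replicate 1 alone, given because Tubb3 was low in that single library, the log2 fold change was −1.66. Gap43, a growth cone gene, had 23.5, 29.9 and 39.8 FPKM in EVX1 KO, 21.9, 27.0 and 29.5 FPKM in Evx1as KO, and 67.6 and 48.6 FPKM in WT. In Evx1as KO 1 rose, Stmn3 (0.94 ± 0.23), and 1 fell, Gap43 (−1.12 ± 0.22, limma adjusted p = 0.00862). Over all tested genes 13.0% were called higher there and 11.4% lower, and the list median was 0.12 beside 0.02. The Gap43 call was lost without WT replicate 1 (0.0744), and that of Stmn3 without Evx1as KO replicates 1 or 3 (0.0587 and 0.0694) or WT replicate 2 (0.149). The part of neuron content in the values of Prph, Vgf and Jakmip1 was not tested.

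Markers of cell state moved in the same libraries. Of 8 streak and mesoderm genes 7 fell and 0 rose in Evx1as KO (median −2.65), and 1 fell in EVX1 KO (median −0.14), beside 11.4% and 0.554% of all tested genes called lower. The largest falls in Evx1as KO were those of Msgn1 (−4.05 ± 0.29), Mesp1 (−3.97 ± 0.56), Mixl1 (−3.84 ± 0.60) and Cdx2 (−2.67 ± 0.23). In Evx1as KO the calls of T and Eomes were lost without WT replicate 1 (limma adjusted p = 0.0524 and 0.0561) or WT replicate 2 (0.0654 and 0.0653). The sum of all 8 lay between 325 and 350.2 FPKM in EVX1 KO, between 40.4 and 137 FPKM in Evx1as KO, and at 346 and 385 FPKM in WT. The gene that fell in EVX1 KO, the presomitic mesoderm regulator gene Msgn1, had 2.32, 3.07 and 0.969 FPKM in EVX1 KO and 18.7 and 16.1 FPKM in WT (−2.62 ± 0.29, limma adjusted p = 0.0124), a call lost without WT replicates 1 or 2 (0.150 and 0.0625), with a pseudocount of 0.1 FPKM (0.0682) or with no filter on low values (0.0515). Of 9 embryonic stem cell and epiblast genes 2 rose in EVX1 KO and 6 in Evx1as KO, with medians of 0.23 and 1.18, beside 0.690% and 13.0% of all tested genes called higher. In EVX1 KO 6 of the 9 lay above WT and 3 below. Those below were Dppa5a (−1.42 ± 0.37), Esrrb (−0.82 ± 0.27) and Zfp42 (−0.33 ± 0.22), which did not pass. The Pou5f1 call in Evx1as KO was lost in 6 of 15 alternatives (limma adjusted p up to 0.136). Fgf5, a growth factor gene of the epiblast, had 35.2, 35.8 and 33.8 FPKM in EVX1 KO, 32.6, 31.7 and 31.2 FPKM in Evx1as KO, and 13.5 and 13.6 FPKM in WT. The other gene that rose in EVX1 KO was Otx2 (1.64 ± 0.16), a call lost without EVX1 KO replicate 2 (limma adjusted p = 0.0511). The part of cell state in the values of the 5 genes was not tested.

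**Figure D4:**
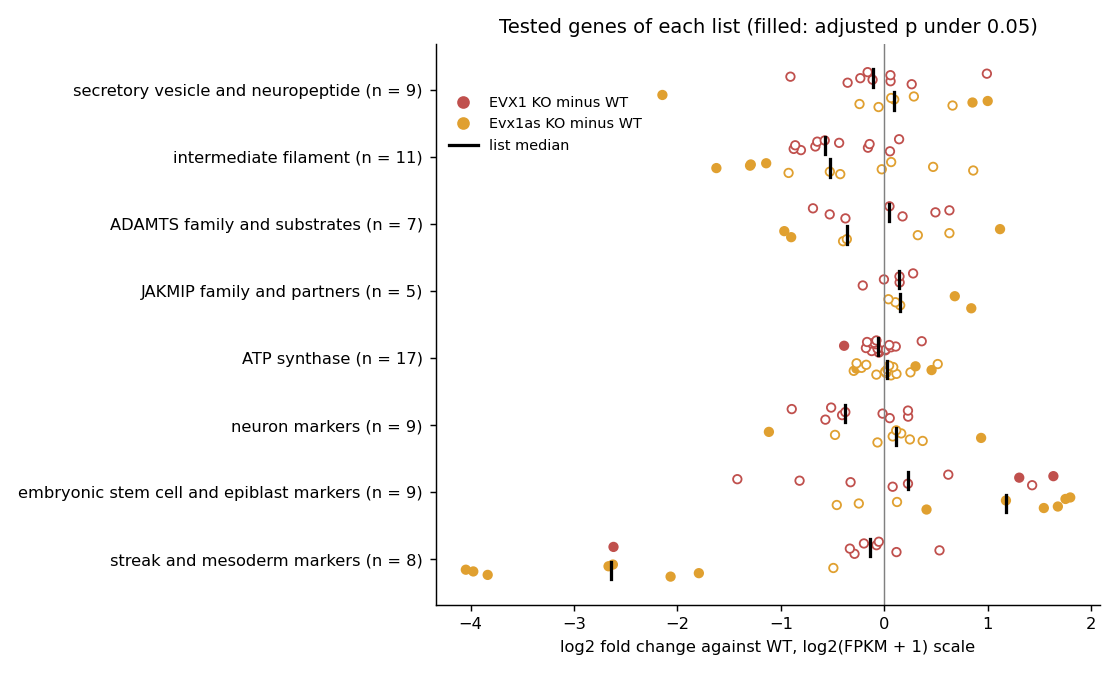
Log2 fold changes against WT (horizontal axis, log2(FPKM + 1) scale) of the tested genes of each list, with EVX1 KO above Evx1as KO. Filled points passed limma's adjusted p under 0.05, and black bars are medians, which for streak and mesoderm genes lie at −0.14 in EVX1 KO and −2.65 in Evx1as KO.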

How the data were processed

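The authors deposited 1 table of FPKM for 8 RNA-seq libraries, made with a stranded TruSeq mRNA kit per the labels' protocols. The submitters' processing notes name CASAVA, TopHat2 2.0.11, mm10 and mm9 without a role. The sources used here do not name the FPKM program, annotation or counting strand. Of 45772 lines 42245 held values, for 38610 symbols. The 2660 symbols on several lines had equal values and were used once.

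The test was limma 3.58.1 under R 4.3.3, two-sided, with moderated variances that follow expression level. It ran on log2(FPKM + 1) of the 13188 genes that reach 1 FPKM in 2 or more libraries, with all 8 libraries and 1 mean for each group, and Benjamini-Hochberg adjustment over all these genes. Relative depth is the most common ratio of values below 1 FPKM. With no read counts, counting error is unknown.

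The members, gene lists and tests were chosen with earlier results of these data known. From each list, called genes were named, at most 4 a comparison by size, and further ones where a call was lost in an alternative. The 3 genes most like each member and the neighbours leave out predicted genes and unnamed transcripts. Neighbours, and genes of a list that were not called, were chosen after their values were seen. Cpe, Nes, Lmna and Tubb3 were picked from all list genes by their values in EVX1 KO replicate 1 alone. Replicate numbers did not pair samples. Alternatives changed the pseudocount, filter, scaling, groups fitted, block and libraries. Tables and plots used Python 3.11.15, pandas 2.3.3, numpy 2.4.6 and matplotlib 3.10.9.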

Additional observations from a re-analysis of the deposited data

How the results depend on the processing

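Over the 15 alternatives each of the 5 genes kept its direction in EVX1 KO against WT and against Evx1as KO, and in Evx1as KO against WT except Adamts9 without WT replicate 1. With a pseudocount of 0.1 FPKM, EVX1 KO against WT was 1.90 for Jakmip1, 1.58 for Adamts9 and −1.98 for Vgf (log2), and EVX1 KO against Evx1as KO 1.26 for Jakmip1. Prph in Evx1as KO did not pass at that pseudocount (−0.998, limma adjusted p = 0.0686) or with no filter on low values (−0.91, limma adjusted p = 0.116), nor 2010107E04Rik with no filter (0.83, 0.106).

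Genes called in EVX1 KO against WT numbered 28 with no filter, 27 in a fit of only both groups and 28 with the replicate block. Same-numbered replicates correlated between −0.10 and 0.08, so the numbers do not pair samples. With the block, 2010107E04Rik in Evx1as KO lay at 0.70 and did not pass, and Evx1 in EVX1 KO lay at 0.15. In Evx1as KO no filter also ended the calls of Atp5g2 (0.0563), Pou5f1 (0.0622), Stmn3 (0.0625), Atp5k (0.0683), Vcan (0.102), and the block those of Pou5f1 (0.0607), Atp5h (0.0730), Vcan (0.0797), Atp5k (0.0797) (limma adjusted p). In EVX1 KO no filter ended those of Msgn1 (0.0515), Atp5h (0.0581), and the block that of Atp5h (0.0969).

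Without EVX1 KO replicates 2 and 3 (6 days in the protocol), EVX1 KO against WT was −2.25 for Prph, −1.86 for Vgf and 1.08 for 2010107E04Rik, and against Evx1as KO −1.34, −0.95 and 0.26. Evx1 lay at 0.0084 and 5730457N03Rik at −0.22 against WT, and 1102 genes were called against Evx1as KO, where all libraries gave 2903.

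Leaving out 1 library at a time gave 1414 to 3427 calls in Evx1as KO against WT, 4 to 643 in EVX1 KO against WT and 1401 to 2671 in EVX1 KO against Evx1as KO. Evx1as KO against WT ran over −1.01 to −0.81 for Prph, −1.16 to −0.66 for Vgf, 0.50 to 1.15 for 2010107E04Rik and −0.015 to 0.34 for Adamts9. EVX1 KO against WT ran over −1.87 to −1.37 for Vgf and −0.26 to 0.23 for Evx1. Of the other list and neighbour genes called, 15 in Evx1as KO and 3 in EVX1 KO were lost in at least 1 alternative, with no change of direction. The causes were not tested, and unknown depth leaves counting error unknown.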
